A study of Mus musculus with 6 samples.

Results

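The respiratory chain subunits described here are the 98 of 55487 gene rows whose symbols follow the naming of the proteins encoded in mitochondrial DNA or of the nuclear subunits of complexes I to V. The naming rule takes the mt-Nd, mt-Co, mt-Cytb and mt-Atp genes, the Nduf genes of the a, b, c, s and v series, Sdha to Sdhd, the Uqcr genes, the Cox4 to Cox8 genes and the Atp5 genes, and it uses no measured value. It gave 13 mitochondrially encoded (mt-encoded) rows and 85 nuclear rows, with 97 symbols, because Atp5o has 2 rows. The 13 mt-encoded rows split into 7 of complex I, 1 of complex III, 3 of complex IV and 2 of complex V. The 85 nuclear rows split into 35 of complex I, 4 of complex II, 8 of complex III, 20 of complex IV, with Ndufa4 counted there, and 18 of complex V.

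Whole pieces of mammary tumour from MMTV-PyMT mice were profiled by bulk RNA sequencing. In this model the mouse mammary tumour virus promoter drives the polyoma virus middle T antigen in mammary epithelium, and every library here comes from a transgene-driven tumour. There were 3 libraries from mice that received DMHCA, a steroidal agonist of the liver X receptors (LXR), by mouth in Medigel cups from 6 weeks of age, and 3 libraries from vehicle mice dosed by the same route from the same age. The series asks how LXR activation bears on tumour progression. The labels give neither the age at collection nor whether the libraries of a group came from separate mice, and the titles within a group share 1 code, so p-values measure only the spread between these libraries.

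The respiratory chain passes electrons from NADH and succinate through complexes I to IV to oxygen and pumps protons, and complex V, the ATP synthase, uses the proton gradient to make ATP. Mitochondrial DNA encodes a few central subunits of complexes I, III, IV and V, transcribed as long precursors by a dedicated polymerase, while all other subunits, and the whole of complex II, are encoded in the nucleus and imported. LXR are nuclear receptors for oxysterols, best known for driving cholesterol export and lipid synthesis genes.

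Of the 13 mt-encoded genes, 7 have a near-identical copy in the nuclear genome, and the start of 2 of these genes is shown with its copy because reads from such sequences can be counted on either row. The first 60 bases of mt-Co2 (chrM:7013-7072, plus strand) and of its copy Gm28661 (chr1:24615506-24615565, minus strand) were the same. The first 60 bases of mt-Nd3 (chrM:9459-9518, plus strand) and of its copy Gm28438 (chr1:24613060-24613119, minus strand) differed at the base in capitals, T3C, counted from 1 at the first base of mt-Nd3. All 4 sequences come from the GENCODE M21 transcripts on GRCm38 and run 5′ to 3′.
mt-Co2: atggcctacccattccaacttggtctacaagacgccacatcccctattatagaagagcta
Gm28661: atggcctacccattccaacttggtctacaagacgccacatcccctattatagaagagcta
mt-Nd3: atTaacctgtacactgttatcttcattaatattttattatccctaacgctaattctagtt
Gm28438: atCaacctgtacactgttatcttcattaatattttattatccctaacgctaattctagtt

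Depth was between 36577451 and 42595799 expected counts per library. All 98 rows were found in GENCODE M21, and 94 of them, 13 mt-encoded and 81 nuclear, had enough counts to be tested. The 4 others were Cox6c2, which M21 lists as a processed pseudogene, the testis-type isoforms Cox7b2 and Cox8c, and a second Atp5o row (ENSMUSG00000116933) with no count in any library. Cox7b2 had a count in 1 library only, agonist replicate 3, and Cox8c had none. Over all genes, edgeR's quasi-likelihood test called 0 of 17396 (0% called) at an adjusted p of 0.05, with 538 genes (3.09%) at an unadjusted p under 0.05. The DESeq2 Wald test called 8 of 29069 (0.0275%), none of them a respiratory chain subunit.

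Levels in CPM are counts scaled to a library's total over the genes tested and by its TMM factor. Markers of luminal epithelium, the cell type that carries the transgene, were detected for 10 of 10 genes. They summed to between 4415 and 4749 CPM in the agonist libraries, against 4798 to 5756 CPM in the vehicle libraries. Fibroblast, adipocyte and leukocyte markers spanned a wider range among the vehicle libraries than among the agonist libraries. The 10 fibroblast markers summed to 5041, 3146 and 4081 CPM in agonist replicates 1 to 3, against 2335, 6948 and 579 CPM in vehicle replicates 1 to 3. The 10 adipocyte markers summed to 556, 303 and 90.05 CPM in the agonist libraries, against 178, 870 and 49.4 CPM in the vehicle libraries. The 10 leukocyte markers summed to 473, 429 and 392 CPM in the agonist libraries, against 296, 741 and 140 CPM in the vehicle libraries. The 10 basal and myoepithelial markers summed to between 214 and 616 CPM in the agonist libraries, against 86.2 to 265 CPM in the vehicle libraries. Endothelial markers (10 genes) summed to between 64.5 and 101 CPM in the agonist libraries, against 46.6 to 93.4 CPM in the vehicle libraries. Pericyte and smooth muscle markers (8 genes) summed to between 158 and 203 CPM in the agonist libraries, against 174 to 208 CPM in the vehicle libraries. Vehicle replicate 2 also gave 5.55% of its counts to 1 ribosomal RNA row, CT010467.1, against 0.112% to 0.247% in the other 5 libraries. In bulk tissue, fewer cells of a type and less RNA per cell cannot be told apart, and the part of these differences in the results below was not tested.

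Per library, the 13 mt-encoded rows held 6.65%, 6.00% and 6.69% of expected counts in agonist replicates 1, 2 and 3, against 4.54%, 4.87% and 7.24% in vehicle replicates 1, 2 and 3. The agonist libraries lay close together, and the vehicle libraries spanned a range that reached below and above all of them. The mean was 6.45% ± 0.383 in agonist tumours and 5.55% ± 1.47 in vehicle tumours (SD, n = 3 each), so the difference was smaller than the SD of the vehicle libraries. The 85 nuclear rows together held 1.23%, 1.03% and 1.052% of counts in the agonist libraries, against 0.937%, 1.06% and 0.918% in the vehicle libraries. Here too the groups overlapped, by 1 vehicle library. The ratio of mt-encoded to nuclear counts was 5.40, 5.84 and 6.35 in the agonist libraries, against 4.85, 4.61 and 7.89 in the vehicle libraries. Vehicle replicate 3 had the highest ratio of the 6 libraries and, by the marker sums above, the least fibroblast, leukocyte and adipocyte RNA.

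**Figure D1:**
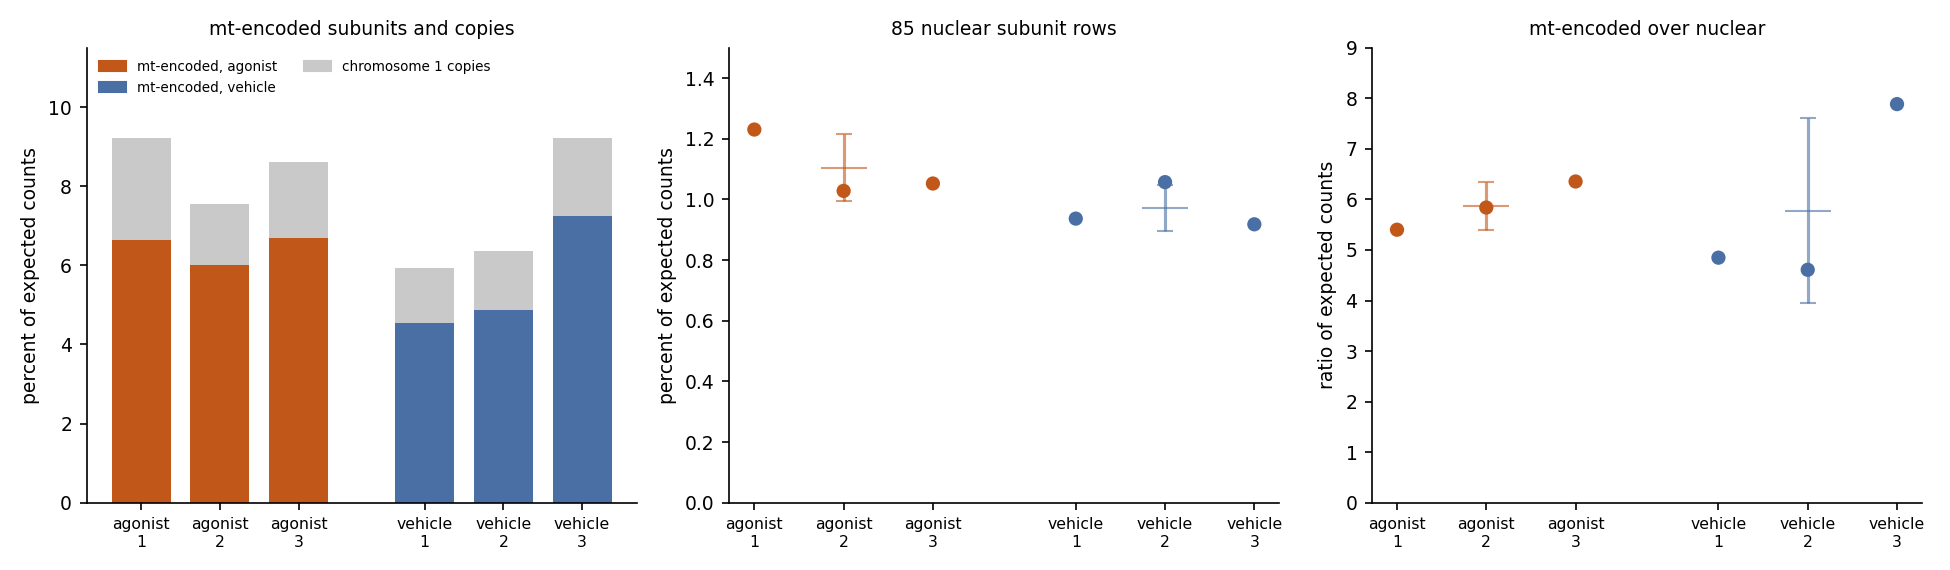
Share of each library's expected counts (percent, left and middle) in the 13 mt-encoded rows, their 7 chromosome 1 copies and the 85 nuclear rows, and the ratio of mt-encoded to nuclear counts (right), in 3 agonist and 3 vehicle libraries. Horizontal marks are group means with SD, and vehicle replicate 3 lies above all agonist libraries in mt-encoded share (7.24%) and ratio (7.89).

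In the fit over all genes, no respiratory chain subunit passed the threshold between agonist and vehicle tumours. Of the 94 tested, 0 had an adjusted p under 0.05 and 0 had an unadjusted p under 0.05 by edgeR, and the smallest adjusted p was 0.99. DESeq2, limma-voom and limma-trend called 0 members as well. At an unadjusted p under 0.05, DESeq2 gave 0 members, against 2.66% of all genes, limma-voom gave 3 (Sdhb, Ndufa9 and Ndufs1), against 6.96% of all genes, and limma-trend on log2(TPM + 1) gave 7, against 2.26% of all genes. They included Ndufa9, Ndufb6, Sdhb, Ndufa4 and Atp5pb, and all 7 values were above 0. With edgeR and 1 library left out, 10 members passed that unadjusted level without vehicle replicate 2, against 13.6% of all genes, 3 without vehicle replicate 3 (mt-Co1, mt-Nd5 and mt-Cytb), against 3.23%, and 2 without agonist replicate 2 (Ndufa5 and Ndufc1), against 3.46%. The 95% interval of the log2 fold change included 0 for 94 of 94 members by edgeR, and for 86 of 94 it lay within a 2-fold difference in either direction.

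Most log2 fold changes (agonist over vehicle) were small and positive. They were above 0 for 12 of 13 mt-encoded subunits and 70 of 81 nuclear subunits, against 49.3% of all genes tested. Of the 81 nuclear subunits, 62 were under 1000 bases, and 61.7% of all protein-coding genes of that length were above 0. The median was 0.18 for mt-encoded subunits and 0.15 for nuclear subunits, against −0.005 over all genes tested, while the median standard error (SE) of a single subunit was 0.24 for mt-encoded and 0.19 for nuclear subunits. Subunits share their libraries and vary together, so these counts are not independent observations. Medians of the mt-encoded and nuclear subunits stood 0.03 apart, and their order depended on single libraries. Leaving out vehicle replicate 3 gave an mt-encoded minus nuclear difference of 0.27. Leaving out vehicle replicate 2 gave −0.12, vehicle replicate 1 gave −0.04 and agonist replicate 3 gave −0.03.

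Each median also rested on particular libraries. The mt-encoded median was 0.03 without vehicle replicate 1, but 0.40 once vehicle replicate 3 was left out instead. For the nuclear median, leaving out vehicle replicate 1 gave 0.07, agonist replicate 1 gave 0.08 and vehicle replicate 2 gave 0.27. Agonist replicate 1 was the highest library for 54 of 81 nuclear subunits, and vehicle replicate 1 the lowest for 45 of 81. Among the 13 mt-encoded subunits, vehicle replicate 3 was highest for 7 and agonist replicate 1 for 6, and vehicle replicate 1 was lowest for 10. The coefficient of variation over the 6 libraries had a median of 21.2% for mt-encoded and 17.3% for nuclear subunits.

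**Figure D2:**
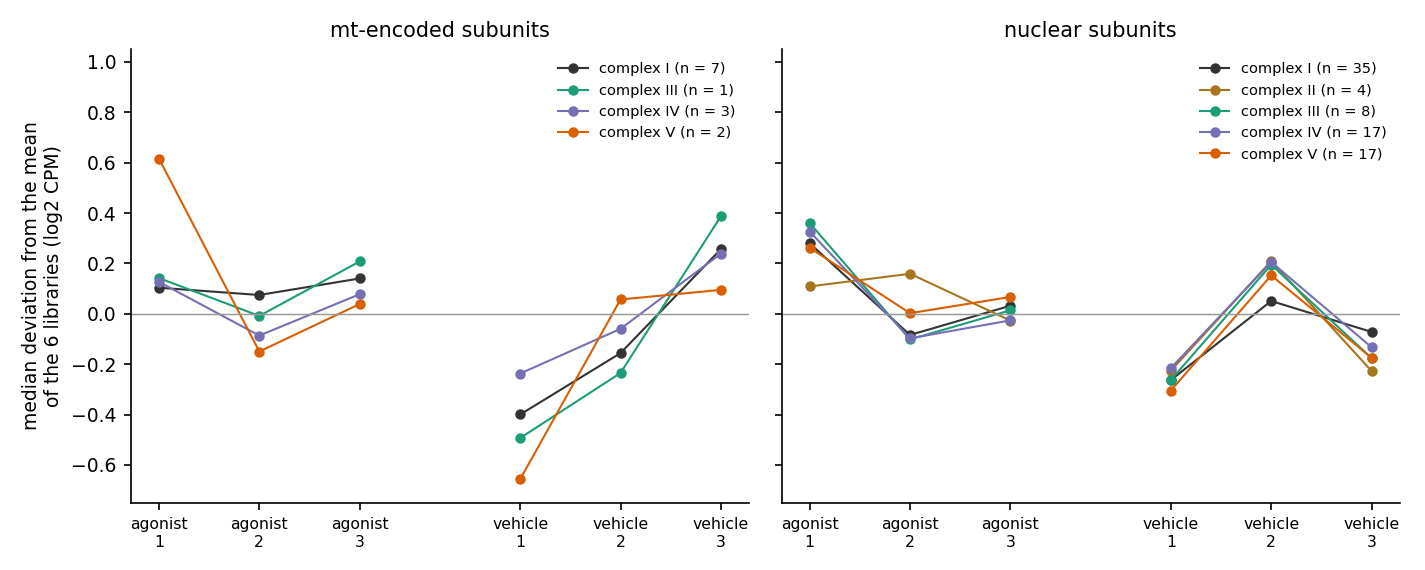
Median deviation of each complex's subunits from their mean over the 6 libraries (log2 CPM) in 3 agonist and 3 vehicle libraries, for mt-encoded (left) and nuclear (right) subunits. Lines join libraries of 1 group for reading only. Vehicle replicate 3 is above the mean for every mt-encoded group and below it for every nuclear group.

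By median deviation, the nuclear subunits of all 5 complexes were above their 6-library mean in agonist replicate 1 (0.11 in complex II to 0.36 in complex III) and vehicle replicate 2, and below it in vehicle replicates 1 and 3. In agonist replicates 2 and 3 the complexes parted in sign, between −0.10 and 0.16 in agonist replicate 2 and between −0.03 and 0.07 in agonist replicate 3. The median deviation of all nuclear subunits from the 6-library mean was 0.28, −0.08 and 0.02 in agonist replicates 1 to 3, against −0.26, 0.13 and −0.13 in vehicle replicates 1 to 3. The mt-encoded subunits gave 0.14, −0.02 and 0.14 in the agonist libraries, against −0.40, −0.15 and 0.26 in the vehicle libraries. The compartments thus parted in vehicle replicates 2 and 3, where one was above its mean and the other below. Agonist replicate 1, the library highest for most nuclear subunits, had the shortest mean fragment, 264 bases against 290 to 317 bases in the other 5 libraries. Vehicle replicate 1, the library lowest for 45 of 81 nuclear subunits, had the longest, at 317 bases. In agonist replicate 1, protein-coding genes under 1000 bases had a median deviation of 0.18, and those of at least 1000 bases one of −0.02. In vehicle replicate 1 these were −0.11 and −0.02. Nuclear subunits under 1000 bases stood at 0.33 in agonist replicate 1 and −0.26 in vehicle replicate 1. Those from 1000 bases stood at 0.10 and −0.27. The part of fragment length in these values was not tested. Split by length, the nuclear subunits had a median log2 fold change of 0.14 under 1000 bases (53 of 62 above 0) and 0.19 from 1000 bases (17 of 19 above 0), against 0.07 and −0.00 for all protein-coding genes of those lengths. Of those protein-coding genes, 61.7% under 1000 bases and 49.4% from 1000 bases were above 0.

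Complex I oxidises NADH and is the largest complex of the chain. Its 7 mt-encoded subunits, all in the proton-pumping membrane arm, had log2 fold changes above 0 in 7 of 7 cases with a median of 0.19, and its 35 nuclear subunits in 33 of 35 cases with a median of 0.15. mt-Nd1 (chrM:2751-3707) had 6379, 5326 and 5979 CPM in the agonist libraries, against 4088, 4845 and 6116 CPM in the vehicle libraries. Only vehicle replicate 3 reached the agonist range, and the log2 fold change was 0.23 ± 0.20 (SE, unadjusted p = 0.268). mt-Nd5 (chrM:11742-13565), a proton pump of the same arm, had 3324, 4116 and 3674 CPM in the agonist libraries, against 2269, 2791 and 4402 CPM in the vehicle libraries. Its highest value was again in vehicle replicate 3, and the log2 fold change was 0.23 ± 0.26. mt-Nd6 (chrM:13552-14070, minus strand), the only protein gene read from the other strand, had 649, 258 and 257 CPM in the agonist libraries, against 260, 245 and 346 CPM in the vehicle libraries. Its log2 fold change of 0.45 ± 0.39 was the largest of the mt-encoded subunits, and it was −0.14 without agonist replicate 1. It overlaps mt-Nd5 on the opposite strand by 14 bases, and whether the counting used strand is not stated by the labels.

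Among the nuclear subunits of complex I, the catalytic core that carries the flavin and iron-sulfur clusters (7 Ndufs and Ndufv proteins) had a median log2 fold change of 0.16 with 7 of 7 above 0, and the 28 accessory subunits one of 0.15 with 26 of 28 above 0. Ndufa9, an accessory subunit that binds a nicotinamide cofactor (chr6:126821721-126849136), had the smallest p of all members. Its values were 134, 111 and 109 CPM in the agonist libraries, against 75.8, 112 and 85.8 CPM in the vehicle libraries. The groups overlapped because vehicle replicate 2 exceeded agonist replicates 2 and 3, and the log2 fold change was 0.37 ± 0.19 with a 95% interval of −0.07 to 0.81 (unadjusted p = 0.0857, adjusted p = 0.99 by edgeR). Ndufb6, an accessory subunit of the membrane arm, had 64.8, 55.0 and 53.5 CPM in the agonist libraries, against 36.4, 56.5 and 43.8 CPM in the vehicle libraries. Vehicle replicate 2 again lay among the agonist libraries, and the log2 fold change was 0.34 ± 0.19 (unadjusted p = 0.106). Ndufs1, an iron-sulfur core subunit, had 86.3, 104 and 89.9 CPM in the agonist libraries, against 52.9, 92.4 and 73.3 CPM in the vehicle libraries. Ndufc2 and Ndufa6 were the complex I nuclear subunits with the highest TPM (a level scaled by transcript length and library total), at 495 ± 43.3 TPM in agonist tumours and 409 ± 102 TPM in vehicle tumours for Ndufc2, and 289 ± 50.05 TPM in agonist tumours and 298 ± 52.7 TPM in vehicle tumours for Ndufa6 (SD, n = 3 each). Ndufa6 had a log2 fold change of −0.03 ± 0.24, and the sign of it turned with single libraries.

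Complex II, succinate dehydrogenase, links the tricarboxylic acid cycle to the chain and has no mt-encoded subunit. Its 4 subunits had a median log2 fold change of 0.08, with 3 of 4 above 0. Sdhb, the iron-sulfur subunit (chr4:140961203-140979193), had 98.7, 93.6 and 93.7 CPM in the agonist libraries, against 67.7, 93.5 and 68.7 CPM in the vehicle libraries. The groups did not overlap, but vehicle replicate 2 came within 1 CPM of the agonist libraries, and the log2 fold change was 0.32 ± 0.17 (unadjusted p = 0.0968, adjusted p = 0.99 by edgeR). Sdhd, a membrane anchor, had 93.7, 100.1 and 88.7 CPM in the agonist libraries, against 73.3, 112 and 70.5 CPM in the vehicle libraries, so its highest and lowest values were both in vehicle tumours. Sdha, the flavoprotein subunit, had a log2 fold change of 0.02 ± 0.19.

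Complex III passes electrons from ubiquinol to cytochrome c, and mt-Cytb, cytochrome b, is its only mt-encoded subunit. mt-Cytb (chrM:14145-15288) had 10952, 9869 and 11464 CPM in the agonist libraries, against 7054, 8435 and 12981 CPM in the vehicle libraries. Vehicle replicates 1 and 2 were below and vehicle replicate 3 above all agonist libraries, with a log2 fold change of 0.18 ± 0.24. The 8 nuclear subunits had a median of 0.17, with 7 of 8 above 0. Uqcrfs1, the Rieske iron-sulfur protein, had 216, 153 and 163 CPM in the agonist libraries, against 121, 181 and 145 CPM in the vehicle libraries (log2 fold change 0.25 ± 0.21). Uqcrb and Uqcr11, small subunits with the highest TPM of the complex, had log2 fold changes of 0.24 ± 0.23 and 0.06 ± 0.20. Uqcrc1, a core protein, was the 1 nuclear subunit below 0, at −0.04 ± 0.17.

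Complex IV, cytochrome c oxidase, reduces oxygen with a catalytic core made of mt-Co1, mt-Co2 and mt-Co3. mt-Co1 (chrM:5328-6872) had 25310, 22913 and 26930 CPM in the agonist libraries, against 16971, 19597 and 29908 CPM in the vehicle libraries. The log2 fold change was 0.18 ± 0.24, and the share of mt-encoded counts in mt-Co1 was 38.4%, 38.9% and 40.7% in the agonist libraries, against 38.5%, 37.8% and 40.8% in the vehicle libraries. Its part in the counts of the 13 mt-encoded rows was thus much the same in all 6 libraries. That pool leaves out the nuclear copy rows described below, which held between 1.39% and 2.59% of a library's counts, so the share depends on how reads were assigned. mt-Co3 had a log2 fold change of 0.13 ± 0.19. mt-Co2 was the only mt-encoded subunit below 0, with 2287, 2141 and 2129 CPM in the agonist libraries, against 2177, 2267 and 2682 CPM in the vehicle libraries and a log2 fold change of −0.12 ± 0.16. Its sign changed when the counts of its nuclear copy were added, as described below.

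The 11 nuclear subunits of complex IV found in most tissues had a median log2 fold change of 0.20, with 9 of 11 above 0. Ndufa4, a former complex I name now placed in complex IV, had 283, 179 and 208 CPM in the agonist libraries, against 133, 219 and 153 CPM in the vehicle libraries, with a log2 fold change of 0.41 ± 0.25 (unadjusted p = 0.138). Cox6b1, which faces the intermembrane space, had 199.5, 152 and 190.4 CPM in the agonist libraries, against 122, 174 and 145 CPM in the vehicle libraries (log2 fold change 0.29 ± 0.19). For both genes vehicle replicate 2 lay inside the agonist range. Cox6a1 and Cox4i1, the nuclear complex IV subunits with the highest TPM, had group means that differed by less than the SD of either group. Cox6a1 averaged 1097 ± 171 TPM in agonist tumours and 1144 ± 281 TPM in vehicle tumours, and Cox4i1 averaged 948 ± 126 TPM in agonist tumours and 940.1 ± 166 TPM in vehicle tumours (SD, n = 3 each). Their log2 fold changes were −0.03 ± 0.20 and −0.00 ± 0.21, with intervals of −0.49 to 0.44 and −0.48 to 0.47.

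Complex V has the mt-encoded proton channel subunit mt-Atp6 and the small mt-Atp8, whose reading frames overlap by 43 bases (chrM:7927-7969). mt-Atp6 had 2069, 974 and 1222 CPM in the agonist libraries, against 999, 1312 and 1117 CPM in the vehicle libraries, and agonist replicate 1 alone set the difference. The log2 fold change was 0.31 ± 0.28, and −0.06 without agonist replicate 1. mt-Atp8 had 731, 537 and 556 CPM in the agonist libraries, against 259, 531 and 657 CPM in the vehicle libraries (log2 fold change 0.33 ± 0.33), and here vehicle replicate 1 stood apart. At 204 bases, mt-Atp8 is shorter than the mean fragment, and its effective length was 19.4 bases in agonist replicate 1 and 11.0 bases in vehicle replicate 1, so its TPM was not compared with that of other genes.

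The 17 tested nuclear subunits of complex V had a median log2 fold change of 0.18, with 14 of 17 above 0. By role, the 5 subunits of the catalytic head and central stalk had a median of 0.05, the 3 c-ring genes 0.10, the 4 peripheral stalk subunits 0.18 and the 5 small membrane subunits 0.22. Atp5c1, the rotating gamma subunit (chr2:10056016-10080510), had 242, 242 and 251 CPM in the agonist libraries, against 183, 232 and 216 CPM in the vehicle libraries. The groups did not overlap, and the log2 fold change was 0.22 ± 0.15 (unadjusted p = 0.181, adjusted p = 0.99 by edgeR). Atp5mpl, a small membrane subunit, had 64.0, 46.1 and 50.9 CPM in the agonist libraries, against 38.3, 48.9 and 41.5 CPM in the vehicle libraries (log2 fold change 0.32 ± 0.17, unadjusted p = 0.0971). Atp5md, another small membrane subunit, had 173, 98.4 and 126 CPM in the agonist libraries, against 77.7, 142 and 98.7 CPM in the vehicle libraries. Both follow the pattern of the other nuclear subunits, with agonist replicate 1 highest and vehicle replicate 1 lowest.

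Atp5h, subunit d of the peripheral stalk (chr11:115415689-115419962), did not follow that pattern. It had 453, 159 and 251 CPM in the agonist libraries, against 561, 193 and 226 CPM in the vehicle libraries. Its highest value was in vehicle replicate 1, the library lowest for 45 of 81 nuclear subunits, and the second highest was in agonist replicate 1. The log2 fold change was −0.18 ± 0.53, and its coefficient of variation of 52.6% was far above the nuclear median of 17.3%. The log2 fold change became 0.46 when vehicle replicate 1 was left out and −0.68 when agonist replicate 1 was. No row with a near-identical sequence held more than 0.312% of its summed counts.

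**Figure D3:**
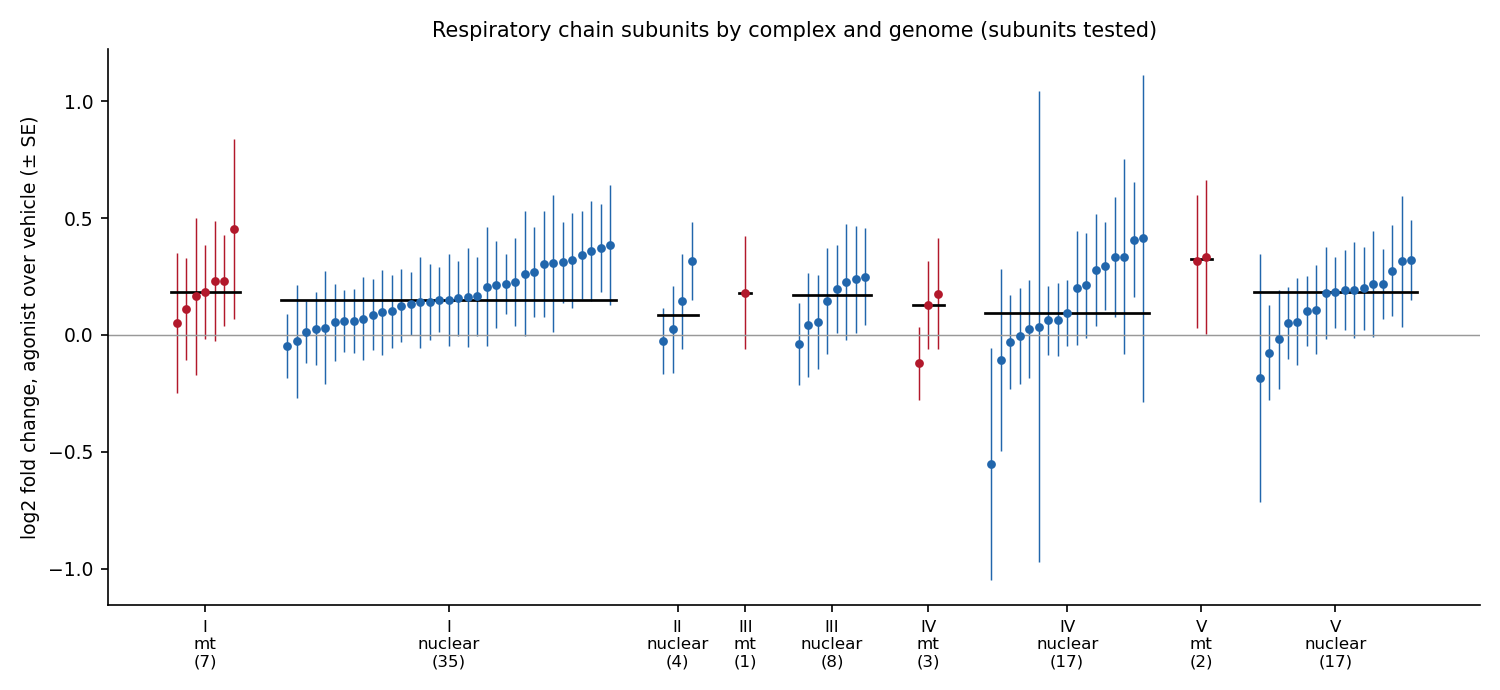
Log2 fold change, agonist over vehicle, with its SE for each of the 94 tested subunits by complex, mt-encoded in red and nuclear in blue, sorted within each group, with the group median as a bar. Medians lie between 0.08 and 0.32, and no subunit's 95% interval leaves 0.

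In CPM, 4 of 94 tested subunits had all agonist libraries above all vehicle libraries, against 3.02% of all genes, and 0 had all agonist libraries below, against 4.22% of all genes. The 4 were Sdhb, Ndufc1, Ndufa11 and Atp5c1, all nuclear, and 4 of 94 is close to the share of all genes. Ndufc1, an accessory subunit of the complex I membrane arm, had 47.3, 31.9 and 35.8 CPM in the agonist libraries, against 31.3, 29.8 and 31.6 CPM in the vehicle libraries (log2 fold change 0.31 ± 0.17). Ndufa11, another membrane arm subunit, had 67.5, 60.5 and 66.5 CPM in the agonist libraries, against 52.0, 58.2 and 57.1 CPM in the vehicle libraries (log2 fold change 0.22 ± 0.13). The margin between the groups was under 1 CPM for Ndufc1 and under 3 CPM for Ndufa11. In TPM, as the authors deposited it, 19 of 81 nuclear and 0 of 13 mt-encoded subunits had all agonist libraries above all vehicle libraries, against 6.32% of all genes, and 0 had them below, against 1.45%. They included Ndufa9, Ndufa11 and Ndufb6 of complex I, Sdhb of complex II, Uqcrfs1 of complex III, Ndufa4 and Cox6b1 of complex IV, and Atp5c1, Atp5mpl and Atp5pb of complex V. Sdhb, for example, had 117, 124 and 116 TPM in the agonist libraries, against 92.5, 98.3 and 85.5 TPM in the vehicle libraries. TPM has no further scaling between libraries, and over all tested genes the median log2(TPM + 1) of vehicle replicate 2, the library rich in ribosomal RNA, was 0.16 under the 6-library mean, against deviations of −0.02 to 0.08 in the other 5.

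The complex IV isoforms that replace a common subunit in particular tissues were low, apart from Cox7a1 and Cox8b. Cox8b, a heart, muscle and brown fat isoform, had 152, 48.5 and 25.6 TPM in the agonist libraries, against 62.4, 149 and 17.2 TPM in the vehicle libraries. Both groups spanned almost the same range, and the log2 fold change was 0.04 ± 1.01. Its partner Cox8a, present in most tissues, had 717, 680 and 632 TPM in the agonist libraries, against 768, 534 and 672 TPM in the vehicle libraries. The libraries high in Cox8b, agonist replicate 1 and vehicle replicate 2, were also those high in Ucp1, the uncoupling protein of brown fat, with 21.7, 3.39 and 0.645 CPM in the agonist libraries, against 4.99, 17.2 and 0.597 CPM in the vehicle libraries. The 9 brown adipocyte markers summed to 58.8, 23.8 and 18.0 CPM in the agonist libraries, against 24.7, 54.9 and 15.99 CPM in the vehicle libraries. Not all of the 9 were high in these libraries. Ppargc1a was lowest in vehicle replicate 2, and Prdm16 was highest in vehicle replicate 1. The sum of the 10 adipocyte markers was also highest in agonist replicate 1 (556 CPM) and vehicle replicate 2 (870 CPM). The order was thus not particular to brown fat markers. The 14 skeletal muscle markers summed to between 833 and 1289 CPM in the agonist libraries, against 704 to 1027 CPM in the vehicle libraries. The part of brown fat or muscle in the tumour pieces in these levels was not tested.

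Cox7a1, a heart and muscle isoform, had 77.8, 42.6 and 46.8 TPM in the agonist libraries, against 56.2, 57.4 and 73.4 TPM in the vehicle libraries, so its order differed from that of Cox8b. Cox6a2, the muscle form of Cox6a1, stayed between 3.48 and 7.96 TPM in all 6 libraries. Cox6b2, a testis-type form, had 9.24, 32.5 and 6.31 TPM in the agonist libraries, against 21.7, 9.28 and 4.34 TPM in the vehicle libraries, with a log2 fold change of 0.41 ± 0.70 that turned to −0.40 without agonist replicate 2. Cox4i2, the oxygen-responsive lung form of Cox4i1, was at most 1.11 TPM, with a log2 fold change of −0.55 ± 0.50.

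**Figure D4:**
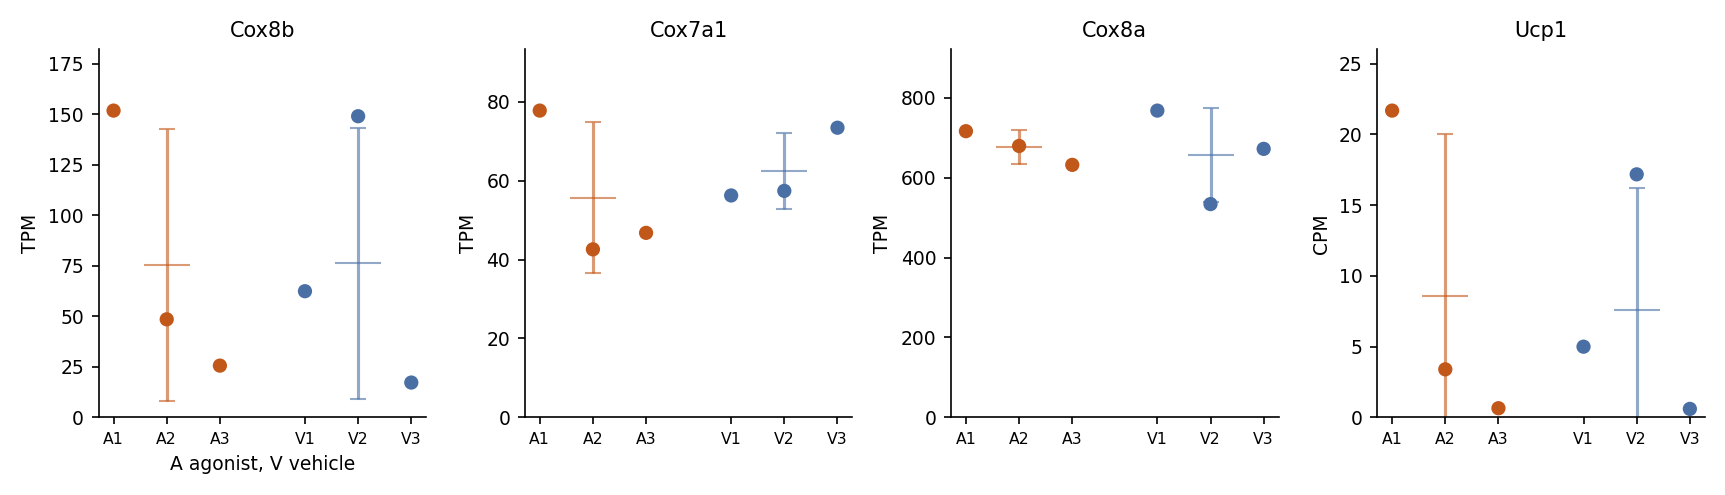
Levels in 3 agonist (A) and 3 vehicle (V) libraries of Cox8b, Cox7a1 and Cox8a (TPM) and of the brown fat gene Ucp1 (CPM), with group mean and SD (an SD that reaches below 0 is cut at the axis). Cox8b and Ucp1 are both highest in agonist replicate 1 and vehicle replicate 2, while Cox8a stays between 534 and 768 TPM. Ucp1 is 1 of 9 brown adipocyte markers, not all of which follow that order.

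For 7 of the 13 mt-encoded genes, a nuclear copy at least 99% identical over at least 90% of the copy also held counts, and for 4 of the 7 it held more than the gene itself. The copies are unprocessed pseudogenes that lie side by side on chromosome 1, minus strand, between bases 24611535 and 24616197. Over the 6 libraries, the copy row took 84.8% of the summed counts of mt-Nd3 and Gm28438, 77.4% of those of mt-Atp6 and Gm10925, 73.6% of those of mt-Co2 and Gm28661, 57.4% of those of mt-Co3 and Gm28437 and 48.4% of those of mt-Nd4l and Gm10222. For mt-Nd4 with Gm28439 the share was 4.31%, and for mt-Co1 with Gm29216, a copy of part of the gene, it was 0.0719%. Reads from sequences as alike as those printed above can be placed on either row, so how these counts divide between mitochondrial and nuclear transcripts cannot be told apart.

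The copies did not take an equal share in all libraries. Gm28661 held 79.1%, 71.8% and 76.2% of its pair's counts in the agonist libraries, against 68.7%, 68.8% and 74.0% in the vehicle libraries. Gm28439 held 13.7% in agonist replicate 1 and between 0.963% and 3.51% in the other 5 libraries, which put the row at 894 CPM in agonist replicate 1, against at most 210 CPM elsewhere. With each copy added to its mt-encoded gene and all genes fitted again, 13 of 13 log2 fold changes were above 0, with a median of 0.20 and 0 called. No mt-encoded gene then had groups that did not overlap, against 3.01% of all genes with agonist libraries higher and 4.22% with them lower. mt-Co2 changed sign, at 0.16 ± 0.22, and mt-Nd3 had 0.20 ± 0.27 in place of 0.05 ± 0.30. The share of counts in mt-encoded rows and copies together was 9.23%, 7.55% and 8.62% in the agonist libraries, against 5.93%, 6.37% and 9.23% in the vehicle libraries.

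**Figure D5:**
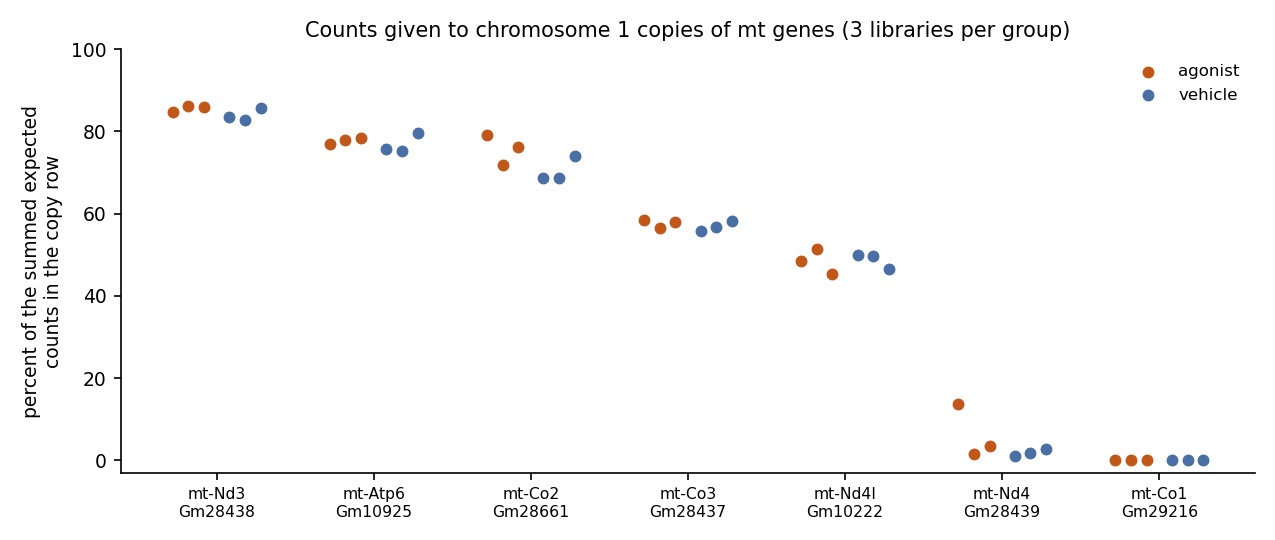
Percent of the summed expected counts of an mt-encoded gene and its chromosome 1 copy that stood in the copy row, in 3 agonist and 3 vehicle libraries, for the 7 genes with such a copy. Shares run from 84.8% for mt-Nd3 down to 0.0719% for mt-Co1, and Gm28439 is high in agonist replicate 1 alone (13.7%).

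Of the nuclear subunits, 12 have another row that held at least 30 counts over the 6 libraries and was at least 97% identical over at least 150 bases and 90% of its length. For 3 of the 12 that row held over 10% of the summed counts. These were Ndufb4, with 57.7% in Ndufb4c, Ndufs5, with 39.2% in Ndufs5-ps, and Atp5l, with 13.5% in Gm10221, all processed pseudogenes in M21. The values of these 3 are therefore uncertain.

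The promoters of the 4 nuclear subunits whose CPM did not overlap between the groups are given here, with the motifs searched for in the promoters of nuclear subunits. They were picked by CPM and not by motif. A RefSeq window from 250 bases before to 50 after the start site was available for 68 of 84 nuclear symbols on GRCm38.p6. The search covered both strands. The NRF1 motif (GCGCA, any base, then GCGC), bound by nuclear respiratory factor 1, occurred in 17 of 68 (25% against 5.19% of 27025 genes), CCGGAAG, bound by ETS factors such as GABPA, in 17 of 68 (25% against 9.93%) and AAGATGGC, bound by YY1, in 10 of 68 (14.7% against 3.19%). The LXR repeat (AGGTCA on both sides of 4 free bases) occurred in 0 of 68, and in 4 of 27025 genes. At least 1 of the NRF1, ETS and YY1 motifs occurred in 38 of 68, so a motif does not set the 4 apart from other nuclear subunits. A match is a description of letters, and subunits with the NRF1 motif had a median log2 fold change of 0.14, against 0.15 for those without it. The medians were 0.14 with and 0.15 without the ETS motif, and 0.15 both with and without the YY1 motif. The windows run 5′ to 3′ in the direction of the gene, motif letters in capitals, which are NRF1 for Ndufa11 (chr17:56717512-56717811, plus strand) and Atp5c1 (chr2:10080383-10080682, minus strand, the window with a motif of 2 listed), ETS for Sdhb (chr4:140961021-140961320, plus strand) and YY1 for Ndufc1 (chr3:51408906-51409205, minus strand).
Ndufa11: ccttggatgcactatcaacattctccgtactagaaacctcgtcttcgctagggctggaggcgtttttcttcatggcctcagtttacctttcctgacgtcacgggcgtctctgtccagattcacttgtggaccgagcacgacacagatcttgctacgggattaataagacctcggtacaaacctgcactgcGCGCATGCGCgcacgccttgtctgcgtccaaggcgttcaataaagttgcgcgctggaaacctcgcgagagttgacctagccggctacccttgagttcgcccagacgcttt
Atp5c1: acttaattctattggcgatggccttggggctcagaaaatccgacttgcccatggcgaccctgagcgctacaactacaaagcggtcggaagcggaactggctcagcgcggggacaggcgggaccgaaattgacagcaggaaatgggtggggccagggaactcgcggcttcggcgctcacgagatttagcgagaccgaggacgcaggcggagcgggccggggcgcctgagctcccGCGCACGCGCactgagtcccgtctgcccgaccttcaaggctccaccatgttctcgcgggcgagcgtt
Sdhb: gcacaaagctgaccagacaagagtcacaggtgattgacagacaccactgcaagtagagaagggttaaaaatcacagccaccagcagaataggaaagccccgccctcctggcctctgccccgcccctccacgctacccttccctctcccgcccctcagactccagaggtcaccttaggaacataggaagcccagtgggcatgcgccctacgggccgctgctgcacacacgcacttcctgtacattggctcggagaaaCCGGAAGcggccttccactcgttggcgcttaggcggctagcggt
Ndufc1: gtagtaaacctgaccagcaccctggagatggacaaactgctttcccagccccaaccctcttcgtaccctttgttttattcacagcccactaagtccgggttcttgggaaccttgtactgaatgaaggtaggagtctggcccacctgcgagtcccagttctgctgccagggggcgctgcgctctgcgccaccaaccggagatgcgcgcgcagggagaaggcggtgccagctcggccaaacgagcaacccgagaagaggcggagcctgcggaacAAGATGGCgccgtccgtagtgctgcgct

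Genes around the chain were read from 11 lists, with 0 called in each by edgeR. The tricarboxylic acid cycle had 15 of 18 tested genes above 0 (median log2 fold change 0.18), protein import and outer membrane 19 of 23 (0.18), and the mitochondrial ribosome 59 of 78 (0.07). Assembly factors had 11 of 18 above 0 for complex I (0.03), 6 of 10 for complexes II and III (0.04), 15 of 22 for complex IV (0.04) and 3 of 4 for complex V (0.16). The mt-RNA processing list had 15 of 20 above 0 (0.09), and subunits and related proteins outside the naming rule, cytochrome c among them, 5 of 7 (0.10). Mitochondrial DNA replication and transcription had 8 of 19 above 0 (−0.02) and transcriptional regulators 6 of 17 (−0.07). Over all genes tested, 49.3% were above 0. With 1 library left out, the median of the complex I assembly list ran between −0.03 (without vehicle replicate 1) and 0.10 (without vehicle replicate 2) and was also below 0 without agonist replicate 1. That of complexes II and III ran between −0.03 (without agonist replicate 1) and 0.11 (without agonist replicate 2). For mitochondrial DNA replication and transcription it ran between −0.09 (without agonist replicate 3) and 0.05 (without agonist replicate 2), and it was also above 0 without vehicle replicate 3. The other 8 medians kept their sign with 1 library left out, within 0.08 to 0.24 for the tricarboxylic acid cycle, 0.08 to 0.27 for protein import, 0.03 to 0.13 for the ribosome, 0.03 to 0.14 for complex IV assembly, 0.04 to 0.29 for complex V assembly, 0.02 to 0.14 for mt-RNA processing, 0.06 to 0.18 for subunits and related proteins outside the naming rule and −0.12 to −0.02 for transcriptional regulators. Their lowest values came without agonist replicate 1 or vehicle replicate 1, apart from complex IV assembly (agonist replicate 3). In alternative fits that kept all 6 libraries, the median of the transcriptional regulators ran from −0.07 to 0.03. That of mitochondrial DNA replication and transcription ran from −0.02 to 0.03, so both also turned sign there.

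In each list the gene with the smallest p is given here. Ppard, a nuclear receptor that drives fatty acid oxidation genes, had 21.1, 24.9 and 19.0 CPM in the agonist libraries, against 35.2, 29.8 and 34.1 CPM in the vehicle libraries. All agonist libraries lay below all vehicle libraries, and the log2 fold change was −0.61 ± 0.16 (unadjusted p = 0.00616, adjusted p = 0.99 by edgeR). Lrpprc, which stabilises mitochondrial mRNA, had 54.2, 62.2 and 58.7 CPM in the agonist libraries, against 44.3, 50.7 and 47.1 CPM in the vehicle libraries. All agonist libraries lay above, with a log2 fold change of 0.30 ± 0.13 (unadjusted p = 0.0518). Vdac2, the outer membrane channel, was also above in all agonist libraries, at 269, 249.8 and 263 CPM, against 191, 220.4 and 219 CPM in the vehicle libraries (log2 fold change 0.31 ± 0.14). Acad9, a complex I assembly factor, had all agonist libraries below, at 80.6, 106 and 105 CPM, against 138, 118 and 113 CPM in the vehicle libraries (log2 fold change −0.34 ± 0.17). Mrps34, of the small mitochondrial ribosomal subunit, was at −0.28 ± 0.14 and Ttc19, a complex III assembly factor, at 0.26 ± 0.15, both with groups that did not overlap. In Cycs (cytochrome c), Cox16, Atpaf1, Mterf3 and Suclg1 the groups overlapped, with log2 fold changes between 0.23 and 0.40. Picking the smallest p favours groups that do not overlap, so their separation is no further evidence. By list, the groups did not overlap for 2 of 20 mt-RNA processing genes, 2 of 22 complex IV assembly factors and 2 of 17 transcriptional regulators. Every other list had at most 1 such gene. Over all genes, 3.02% had all agonist libraries above and 4.22% below.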

How the data were processed

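RNA from 6 mammary tumour libraries, 3 agonist and 3 vehicle, was sequenced and processed by the authors. Per the submitters' processing notes, the tools were FastQC 0.11.9, cutadapt 3.5, STAR 2.7.9a, RSEM 1.3.1, R 4.1 and DESeq2 1.36.0, on GRCm38. Their settings, and the use of strand in counting, are not given in the sources at hand. The deposited files hold the expected count that RSEM estimated for each gene, in which a read that fits several transcripts is shared among them, and TPM, which the authors' RSEM run scaled by effective transcript length.

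Expected counts were rounded to whole numbers, filtered with filterByExpr, scaled by TMM and tested with edgeR 4.0.16 (quasi-likelihood, robust) on all genes, with Benjamini-Hochberg adjustment and a threshold of 0.05, after the code was tested on simulated data. At the spread estimated from these libraries, it called 13 of 97 simulated 2-fold changes (13.4%) and 61 of 98 4-fold changes (62.2%), with 8 false calls. The changed genes were drawn at random from all genes tested, and most 2-fold changes in such genes would thus be missed. The median SE was 0.27 over all genes tested, against 0.19 for nuclear and 0.24 for mt-encoded subunits. The share missed among the subunits was not tested. CPM values are scaled by TMM, and TPM values are as deposited. No pair of libraries agreed within sampling noise (chi-square per degree of freedom at least 80.29), and each was counted as 1 replicate. The spread between libraries, not counting error, sets the errors given. Near-identical rows were found with BLAST 2.17.0+ on GENCODE M21 transcripts, and promoter windows come from RefSeq (GRCm38.p6).

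The members, lists and tests were chosen with earlier results of these data known. Named genes are all mt-encoded members, the 2 nuclear members per complex with the highest TPM and the 2 with the smallest p, tissue isoforms of complex IV with their partners, and the gene with the smallest p in each list. Other genes named were chosen after their values were seen, as were the TPM separation and the exclusion of the ribosomal and 7S RNA rows. Alternatives were other scalings (DESeq2 size factors, upper quartile, scaling without mt-encoded rows), no filter and a stricter one, no robust estimation, the replicate block, DESeq2 1.42.0, limma-voom and limma-trend (limma 3.58.1, R 4.3.3), each library left out, and copies added to mt-encoded genes. The 9 cell type lists hold markers that other cells can share.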

Additional observations from a re-analysis of the deposited data

How the results depend on the processing

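No alternative called a respiratory chain subunit, and the DESeq2 Wald test called 8 genes in all. At an unadjusted p under 0.05 there were 3 members with limma-voom, 7 with limma-trend and 0 to 10 with a library left out, the 10 without vehicle replicate 2, where 13.6% of all genes passed. Medians stayed above 0, at 0.03 to 0.40 for mt-encoded and 0.07 to 0.27 for nuclear subunits with a library left out, while their difference ran from −0.12 to 0.27. As a share of TPM, mt-encoded rows held 12.4% in agonist and 10.8% in vehicle tumours, and with copies added to the expected counts 8.47% in agonist and 7.18% in vehicle tumours. The TPM share includes mt-Atp8, with means of 40113.5 TPM in agonist and 33489.2 TPM in vehicle tumours. These levels rest on its very short effective length, so much of the TPM share is uncertain. Replicate numbers paired the libraries weakly at most, with correlations of same-numbered deviations of 0.17, 0.04 and 0.06. Those of differently numbered libraries ran from −0.11 to 0.055. Agonist replicates 1 and 3 correlated best with the vehicle library of the same number, and agonist replicate 2 with vehicle replicate 3. The replicate block gave medians of 0.23 for mt-encoded and 0.17 for nuclear subunits, with 0 genes called and 488 at an unadjusted p under 0.05, against 538 without it.

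Of 881 log2 fold changes of named genes across alternatives, 840 kept their direction and 41 turned. Those that turned were mt-Co2 with copies added (0.16), mt-Nd3 with limma-trend (−0.00183), Ndufa6 with upper-quartile factors (0.015) and limma-voom (0.024), Cox6a1 with upper-quartile factors (0.012), Cox8b with limma-voom (−0.023) and Cox4i1 with upper-quartile factors (0.035), no filter (0.00422), the replicate block (0.00494), limma-trend (0.019) and without the ribosomal and 7S RNA rows (0.00114). With a library left out, the sign turned for Atp5h (−0.68 to 0.46), Cox4i1 (−0.14 to 0.15), Cox6a1 (−0.23 to 0.091), Cox6b2 (−0.40 to 1.11), Cox7a1 (−0.57 to 0.12), Cox7a2 (−0.13 to 0.27), Cox8a (−0.059 to 0.13), Cox8b (−1.21 to 1.28), Ndufa6 (−0.21 to 0.15), Uqcr11 (−0.18 to 0.20), mt-Atp6 (−0.056 to 0.52), mt-Nd2 (−0.041 to 0.36), mt-Nd3 (−0.25 to 0.34), mt-Nd4l (−0.12 to 0.52) and mt-Nd6 (−0.14 to 0.68). The cause was not tested. With 3 libraries a group, the 95% interval reached beyond a 2-fold difference for 8 of 94 members and included 0 for all 94.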
